A study of Macaca mulatta with 20 samples.

Results

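Platelet alpha-granule cargo genes were followed in the whole blood of thorax-irradiated rhesus macaques. The members are 10 named genes (PF4, PF4V1, PPBP, SELP, THBS1, TREML1, MMRN1, F13A1, SPARC and CLU), and a gene was measured where a probe carrying its name lay well above background on at least 5 of 20 arrays. This held for 9 of the 10 genes with 12 probes, out of 19961 probes that passed the same filter and 34127 on the array. MMRN1 was the gene that did not pass.

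The animals were male rhesus macaques (Macaca mulatta) that received 10 Gy of X-rays to the thorax, without a mitigating drug, and the labels give no ages. Blood was drawn 3 days before irradiation (pre-irradiation) and 2, 5 and 30 days after it, with 5 arrays in each group. All groups share the same handling: PAXgene-stabilised whole blood, globin depletion and hybridisation to a human Agilent 4X44K v2 array, so the macaque transcripts were read by human probes. There was no unirradiated group sampled over the same days, so time and irradiation cannot be told apart. Arrays with one replicate number were paired, since the study's methods compare each animal with itself, except for 1 RNA pooled from 2 animals that cannot be assigned to an array here.

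Platelets are shed by megakaryocytes in the bone marrow and the lung. They carry no nucleus, but keep megakaryocyte transcripts that decay as the platelet ages. Their alpha granules store chemokines, adhesive proteins and clotting factors, and these are released or moved to the surface when a vessel is injured. In whole blood RNA such transcripts are read as an average over all cells. Changes in the number of platelets, in the RNA of each platelet and in the RNA from other cells therefore cannot be told apart.

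The probes that read the genes are 60 bases long and were designed on human transcripts. A probe each is shown for 2 chemokines and 2 membrane proteins, because these 4 probes lie on stretches that code for a known functional part of the protein. They are given 5′ to 3′ as on the array, with that stretch in capitals, found in the translated reading frame of the probe. Capitals mark the paired lysine codons at the end of PF4 that bind heparin, the ELR motif and the CXC cysteines of PPBP, the basic start of the cytoplasmic tail of SELP, and a tyrosine motif of the ITIM type in TREML1.
PF4: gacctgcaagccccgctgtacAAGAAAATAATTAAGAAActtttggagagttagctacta
PPBP: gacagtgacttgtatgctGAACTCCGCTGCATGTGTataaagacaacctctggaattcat
SELP: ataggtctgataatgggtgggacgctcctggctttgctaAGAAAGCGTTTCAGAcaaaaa
TREML1: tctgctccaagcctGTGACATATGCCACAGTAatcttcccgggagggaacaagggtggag
On the human genome (hg19, minus strand) the array annotation places them at chr4:74846915-74846974 for PF4, chr4:74853299-74853358 for PPBP, chr1:169562844-169562903 for SELP and chr6:41117398-41117457 for TREML1. PF4 and PPBP thus lie side by side in the CXC chemokine cluster of chromosome 4, together with PF4V1 (chr4:74720137-74720196, plus strand). No 2 probes of different member genes share a run of more than 8 bases, and the probes of the close relatives PF4 and PF4V1 share at most 6. These runs compare probes with each other, so they do not show whether the PF4 probe also matches the PF4V1 transcript, or the reverse. Neither that match nor the match of each probe to the macaque transcript was tested.

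Levels are given as the log2 processed signal minus the 75th percentile of the array, so a level of 0 means a spot at that percentile. Levels of different probes are not comparable with each other. All 12 probes except that of SPARC were well above background on all 20 arrays (SPARC on 18), and no member probe was saturated. The pre-irradiation array of replicate 3 stood apart: PF4, PF4V1, PPBP, SELP, TREML1, F13A1 and CLU were all lowest there, by 0.87 to 2.66 below the next array on the log2 scale. Without replicate 3 the changes of the 9 genes at 2 days ran from 0.74 (SPARC) to 1.46 (SELP), where all 5 pairs gave 0.63 to 1.67.

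The transcripts of the alpha-granule cargo stood highest at 2 days. All 12 probes were higher at 2 days than before irradiation in 5 of 5 pairs, with folds of 1.54 to 3.18, against 6.17% of all tested probes that were higher in every pair. At 5 days the 9 genes lay 0.22 to 0.68 above pre-irradiation on the log2 scale, and at 30 days between 0.53 below and 0.44 above it. By limma's moderated F test over the 4 groups, 8 of the 12 probes changed over the time course (7 genes: TREML1, F13A1, SELP, PF4, PF4V1, CLU and PPBP), where 0.902% of all tested probes were called. The comparison of 2 days with pre-irradiation on its own called 0 of the 12 (0.0601% of all probes were called). Called means that the p-value was below 0.005 and the FDR (Benjamini-Hochberg) below 10%.

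**Figure D1:**
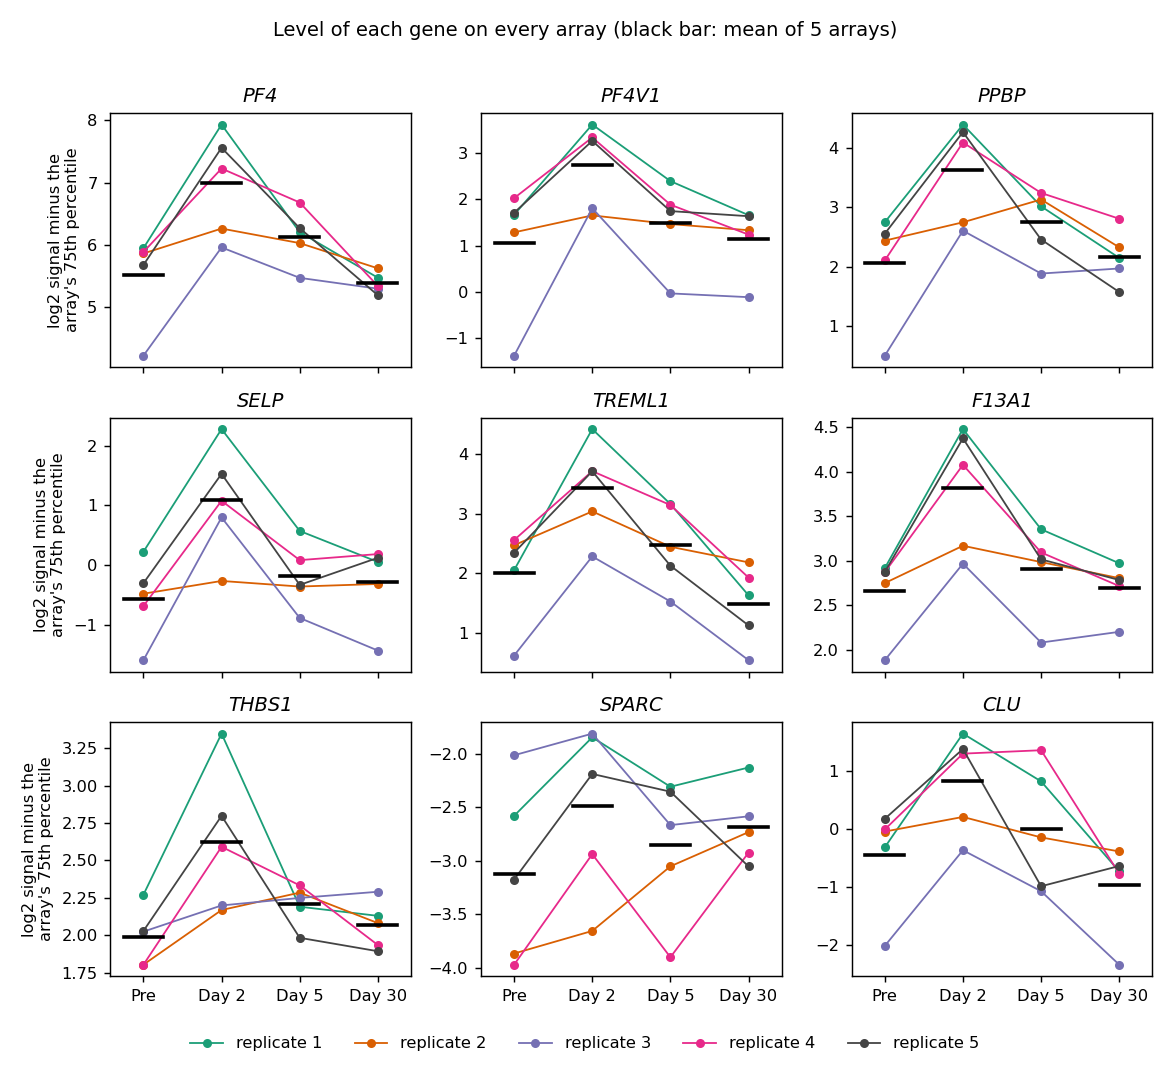
Level of each of the 9 genes (y axis, log2 signal minus the 75th percentile of the array) before irradiation and at 2, 5 and 30 days (x axis), with a coloured line for each replicate number and a black bar for the mean of 5 arrays. Every gene has its highest mean at day 2, and replicate 3 (purple) lies below the other replicates before irradiation in 7 of the 9 panels, THBS1 and SPARC being the exceptions.

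Among the chemokines, PF4 (platelet factor 4, which binds heparin and is used as a marker of platelet release) had levels of 5.94, 5.86, 4.21, 5.88 and 5.67 in replicates 1 to 5 before irradiation. At 2 days its levels were 7.93, 6.26, 5.96, 7.23 and 7.56. The lowest array at 2 days (5.96) was just above the highest before irradiation (5.94). The groups thus did not overlap, by a narrow margin, which held in the same direction for 0.536% of all probes. The mean change was 1.47 ± 0.25 (log2, SE, n = 5 pairs), a 2.78-fold difference (limma adjusted p = 0.138). At 5 days PF4 was 6.20, 6.03, 5.47, 6.68 and 6.27, still higher in 5 of 5 pairs by 0.61 ± 0.19. At 30 days it was 5.47, 5.62, 5.29, 5.33 and 5.19, with a mean difference of -0.13 ± 0.26 from pre-irradiation. The SD was 0.17 at 30 days and 0.73 before irradiation. The wider spread before irradiation rests on replicate 3 (4.21), as the other replicates lay between 5.67 and 5.94. PF4 changed over the time course (limma F test, adjusted p = 0.0376).

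PPBP, the precursor of beta-thromboglobulin and of the neutrophil chemoattractant NAP-2, was read by a probe spotted 10 times on each array. Its levels were 2.75, 2.44, 0.50, 2.10 and 2.55 before irradiation and 4.40, 2.75, 2.60, 4.09 and 4.27 at 2 days. The groups overlapped through replicates 2 and 3, the low arrays of day 2, which lay just below the highest pre-irradiation array, that of replicate 1. The mean change was 1.55 ± 0.27 (2.94-fold, limma adjusted p = 0.138). PF4V1, a close relative of PF4 that differs in a few residues, showed the largest mean change of the 9 genes at 2 days, 1.67 ± 0.35 or 3.18-fold (limma adjusted p = 0.166). That mean drew on replicate 3, where PF4V1 was at -1.37 before irradiation and 1.81 at 2 days, while the other replicates changed by 0.37 to 1.94. Without replicate 3 its change was 1.29. Both genes changed over the time course (limma F test, adjusted p = 0.0891 for PPBP and 0.0389 for PF4V1).

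Of the membrane proteins, SELP codes for P-selectin, which moves to the surface of activated platelets and holds leukocytes through PSGL-1. It was measured by a pair of probes, and both were highest at 2 days. The brighter probe read 0.23, -0.48, -1.59, -0.68 and -0.30 before irradiation and 2.28, -0.26, 0.80, 1.08 and 1.53 at 2 days. Replicate 2 moved least here, by 0.21, and replicate 3 most, by 2.39. The mean change was 1.65 ± 0.30 on this probe and 1.19 ± 0.20 on the probe printed above, with limma adjusted p-values of 0.143 and 0.138. Both probes changed over the time course (limma F test, adjusted p = 0.0376 and 0.0355).

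TREML1 codes for TLT-1, a receptor of the alpha-granule membrane found on megakaryocytes and platelets. Its levels were 2.05, 2.47, 0.62, 2.56 and 2.34 before irradiation and 4.42, 3.04, 2.28, 3.71 and 3.71 at 2 days. At 5 days they were 3.16, 2.44, 1.53, 3.14 and 2.13, and at 30 days 1.63, 2.18, 0.54, 1.93 and 1.12. TREML1 was thus above its pre-irradiation level in every pair at 2 days (1.42 ± 0.25) and below it in every pair at 30 days (-0.53 ± 0.20, limma adjusted p = 0.242). It had the smallest p-value of the 12 probes in the time course (limma F test, adjusted p = 0.0174).

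F13A1, the transglutaminase subunit of factor XIII that crosslinks fibrin, is made by megakaryocytes and also by monocytes and macrophages. Its brighter probe read 2.92, 2.75, 1.88, 2.87 and 2.88 before irradiation and 4.48, 3.17, 2.97, 4.08 and 4.38 at 2 days. The groups did not overlap, by a narrow margin (2.97 against 2.92). The mean change was 1.15 ± 0.20 (2.23-fold), and at 5 and 30 days it was 0.25 ± 0.14 and 0.04 ± 0.16. The 2 probes of F13A1 differed in the time course: the brighter one changed (limma F test, adjusted p = 0.0254) and the dimmer one did not pass (adjusted p = 0.233), although its day 2 difference of 0.90 ± 0.18 had the same sign in 5 of 5 pairs.

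CLU codes for clusterin, a secreted chaperone stored in alpha granules and made in many tissues. It read -0.31, -0.04, -2.01, -0.01 and 0.18 before irradiation, 1.64, 0.21, -0.36, 1.30 and 1.38 at 2 days, and -0.73, -0.38, -2.33, -0.77 and -0.63 at 30 days. Like TREML1, it was higher in every pair at 2 days (1.27 ± 0.24) and lower in every pair at 30 days (-0.53 ± 0.17, limma adjusted p = 0.188). Its day 5 arrays spread widest of its 4 groups, from -1.07 to 1.36 (SD 1.08). CLU changed over the time course (limma F test, adjusted p = 0.0748).

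The adhesive protein thrombospondin-1 (THBS1), which monocytes also make, and SPARC, a collagen-binding glycoprotein, showed smaller differences. THBS1 lay between 1.80 and 2.27 before irradiation and between 2.17 and 3.35 at 2 days, a mean change of 0.64 ± 0.18 on its brighter probe and 0.62 ± 0.19 on the other. SPARC lay between -3.97 and -2.01 before irradiation and between -3.66 and -1.81 at 2 days, a mean change of 0.63 ± 0.19. Neither gene passed the time course test (limma F test, adjusted p = 0.232 and 0.393 for the probes of THBS1 and 0.417 for SPARC). SPARC also stood apart in pre-irradiation replicate 3, where it was highest of the 5 arrays while 7 other genes were lowest.

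MMRN1, the gene of the large factor V carrier multimerin-1, was well above background on 1 array, day 2 replicate 5, at a level of -3.62. Its signal on the 5 pre-irradiation arrays lay between -5.95 and -5.25, not well above background. On day 30 replicate 3 it was -3.93 and on day 5 replicate 4 it was -4.06, also not well above background. No test was made.

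At 2 days, none of the 12 probes was called by limma. All 12 were higher at an unadjusted p-value under 0.05, against 8.47% of all tested probes, and 9 of the 12 at one under 0.005, against 1.9%. The limma adjusted p-values of the 12 lay between 0.138 and 0.235, and a paired test that does not pool the spread over probes called 0 of the 12 and 0 of all 19961 probes. The call turned on the fit, for the members and over the whole array, where 12 probes were called. With all 20 arrays in one fit 8 of the 12 member probes and 343 of all probes were called, and with an intensity trend in the spread 9 and 200. Without replicate 2, the pair with the smallest change, the counts were 8 and 588. Normexp background correction gave smaller changes at 2 days, from 0.17 (THBS1) to 1.08 (PF4V1), where the median of all probes stood at 0.17, so THBS1 was at the level of the typical probe in that setting.

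The size of the difference varied between pairs. The median change over the 9 genes was smallest in replicate 2, at 0.37 on the log2 scale, and 7 of the 9 genes had their smallest change there. It was 1.94 in replicate 1, 1.66 in replicate 3, 1.30 in replicate 4 and 1.50 in replicate 5, a mean of 1.36 ± 0.60 (SD, n = 5 pairs). Over all 19961 probes the median change was -0.04. Each of the 5 slides held 1 array of every group. The change taken within slides was 1.39 ± 0.78 (SD, n = 5 slides), from 0.10 to 2.05. The pre-irradiation and day 2 arrays of a slide carried different replicate numbers, so this change is not paired by animal. Position on the slide was the same for all arrays of a group, so position and day cannot be told apart.

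**Figure D2:**
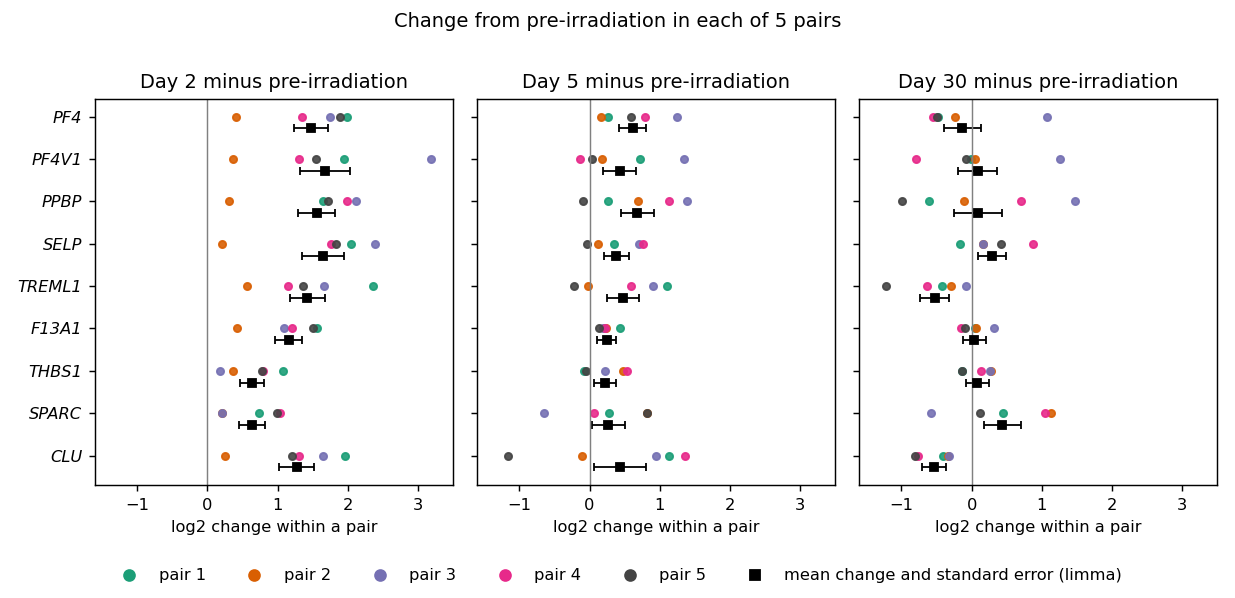
Change from pre-irradiation (x axis, log2) of each gene (y axis) in the 5 pairs at 2, 5 and 30 days, with the mean and its standard error from limma as black squares. At day 2 every point lies above 0 and pair 2 (orange) lies lowest in 7 of the 9 genes, while at day 30 all 5 points of TREML1 and CLU lie below 0.

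At 5 days, limma called 0 of the 12 probes and 0% of all tested probes, and 2 of the 12 were higher at an unadjusted p-value under 0.05, against 7.35% of all probes. The mean of all 12 probes was higher than before irradiation, but only PF4 and F13A1 were higher in 5 of 5 pairs, and 7.23% of all probes were. In 5 genes the mean moved by more than 1.5 times when 1 replicate was left out. CLU (0.43) went to 0.83 without replicate 5, to 0.26 without replicate 1 and to 0.20 without replicate 4. PF4V1 (0.43) went to 0.20 without replicate 3, TREML1 (0.47) to 0.31 without replicate 1 and THBS1 (0.22) to 0.15 without replicate 4. SPARC (0.27) went to 0.13 without replicate 2 or 5 and to 0.50 without replicate 3. The median change over the 9 genes was 0.40 ± 0.36 (SD, n = 5 pairs). Replicate 5 stood apart at this time with a median of -0.03, after 1.50 at 2 days, and CLU stood at -1.16 relative to its own pre-irradiation level there.

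At 30 days limma again called 0 of the 12 probes and 0% of all probes, and 2 of the 12 (TREML1 and CLU) were lower at an unadjusted p-value under 0.05, against 10.1% of all probes. The median change over the genes, taken in each pair, averaged -0.03 ± 0.19 (SD, n = 5 pairs), the smallest spread of the 3 days, while the median of the 9 mean changes was 0.08. TREML1 and CLU were lower in 5 of 5 pairs, and 10.5% of all probes were lower in every pair at that time. PPBP ranged from -0.98 in replicate 5 to 1.47 in replicate 3 around a mean of 0.09 ± 0.34, so its mean difference was within the spread between pairs. SPARC had the highest mean, 0.44 ± 0.27, and was higher in 4 of 5 pairs.

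The days were also compared with each other, and these comparisons share arrays with those above. From day 2 to day 30 all 12 means were lower, 10 of them in 5 of 5 pairs, against 6.69% of all probes, and the mean change of the genes ran from -1.95 in TREML1 to -0.20 in SPARC. TREML1 averaged 3.43 at 2 days and 1.48 at 30 days, and CLU 0.83 and -0.97 (-1.80 ± 0.26), with limma adjusted p-values of 0.143 for both. For TREML1, CLU and PF4 no array at 30 days reached the lowest array at 2 days, which held for 0.892% of all probes. In CLU the margin was narrow (-0.38 at 30 days against -0.36 at 2 days). None of the 12 was called (0.0501% of all probes were called), and 11 were lower at an unadjusted p-value under 0.05, against 7.44%. With all 20 arrays in one fit, 8 of the 12 and 164 of all probes were called, where the comparison on its own called 10 of all probes.

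From day 2 to day 5 all 12 means were lower, by 0.37 in SPARC to 1.26 in SELP for the genes (with normexp background correction THBS1 turned to 0.028), and 6 of the 12 probes were lower in every pair, against 1.6% of all probes. None was called (0% of all probes), and the adjusted p-value of every member was 0.972 by limma, while 9 were lower at an unadjusted p-value under 0.05, against 1.39%. From day 5 to day 30, limma called 0 of the 12 and 0% of all probes, 4 were lower at an unadjusted p-value under 0.05, against 6.64%, and 3 were lower in every pair, against 5.88%. TREML1 showed the widest difference of that step, with a level 0.501 times that of day 5, followed by CLU (-0.97 ± 0.35, lower in 4 of 5 pairs). SELP (-0.09 ± 0.21), THBS1 (-0.14 ± 0.17) and SPARC (0.17 ± 0.25) differed by less than their standard error.

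The 8 calls of the time course did not hold in every setting. Over the whole array the calls went from 180 to 0, 4 and 2 probes when all arrays of replicate 1, 4 or 5 were left out, and 0 of the 12 member probes were called in each case. Leaving out replicate 3 left 33 calls in all and 3 among the members (PF4, F13A1 and TREML1). Without the pairing by replicate number 4 probes of the array were called, with normexp background correction 0, and none was a member. Without replicate 2 there were 165 calls, 8 of them member probes. All 8 called probes had their highest mean at 2 days, as did 100 of the 180 probes called over the whole array.

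Across the 20 arrays most cargo genes followed one profile. The correlation of a gene with the mean of the other 8 was 0.97 for F13A1, 0.94 for PF4, 0.93 for PPBP, 0.92 for SELP, 0.91 for TREML1 and PF4V1, 0.87 for CLU and 0.74 for THBS1 (Pearson's r). SPARC did not share it, with r = 0.06. These values describe 20 arrays that share animals, slides and scaling, and carry no test.

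The genes outside the list whose profile was most like the mean of the 9 were searched among 13917 genes, as a description. They were ITGB5 (r = 0.97), CTTN (0.96), GNG11 (0.95), HGD (0.95), CMTM5 (0.95), ITGA2B (0.94), GP1BB (0.94), C6orf25 (0.94), TSPAN9 (0.93) and PLXNB3 (0.93). ITGA2B and GP1BB code for subunits of the fibrinogen and von Willebrand factor receptors of platelets, and C6orf25 codes for the platelet receptor G6b. These genes were chosen for a profile that is highest at day 2, so their calls in the time course (10 of 10) and their day 2 changes of 1.36 to 1.80 follow from the choice and carry no support.

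**Figure D3:**
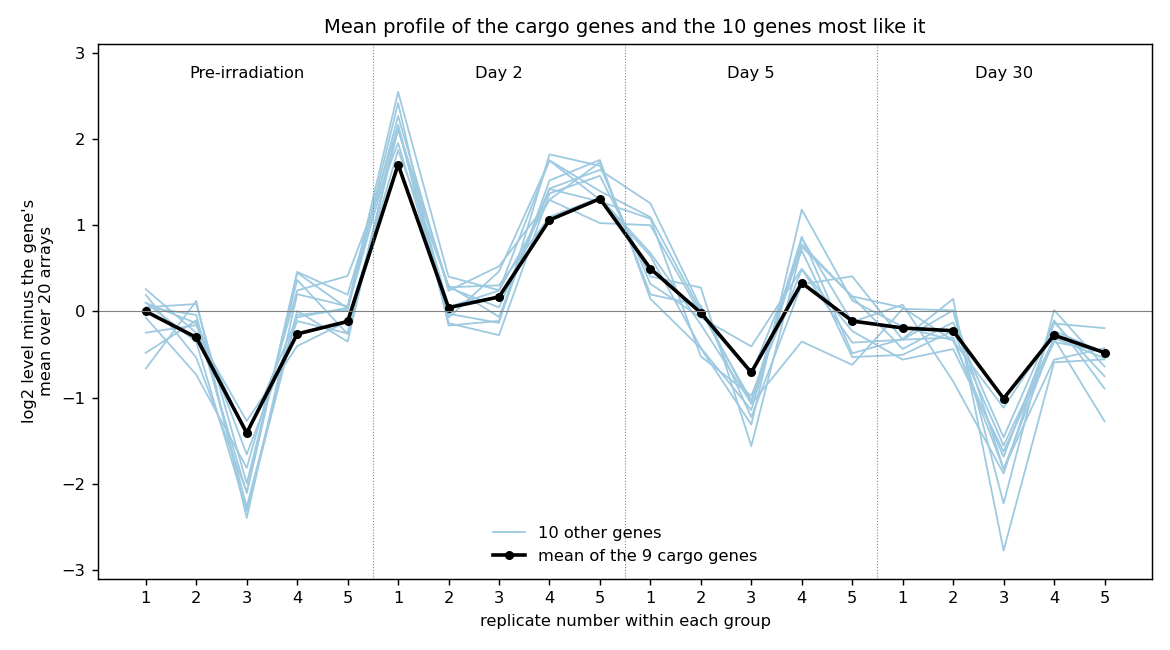
Level minus the gene's own mean over 20 arrays (y axis, log2) for the mean of the 9 cargo genes (black) and the 10 genes most like it (blue), by array (x axis, replicates 1 to 5 within each group). The mean of the cargo genes is highest in day 2 replicate 1 (1.70) and lowest in pre-irradiation replicate 3 (-1.41), and the other genes follow the same arrays.

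Further proteins of the alpha granule were represented by 21 genes. At 2 days 19 were higher and 2 lower than before irradiation, with a median of 0.78, and 0 were called by limma. Of the 21, 12 were higher at an unadjusted p-value under 0.05 (none was lower), against 8.47% of all tested probes. Against 0.902% of all tested probes, 4 of the 21 changed over the time course. They were VWF (von Willebrand factor, 1.42 ± 0.22 at 2 days), LTBP1 (a carrier of latent TGF-beta, 1.59 ± 0.31), TIMP1 (a metalloproteinase inhibitor, 1.12 ± 0.17) and ECM1 (extracellular matrix protein 1, 0.99 ± 0.20). EGF had the largest difference at 2 days, 1.64 ± 0.31, and did not pass the time course test (limma adjusted p = 0.288). The 2 lower genes were CCL5, a chemokine also made by T and NK cells, at -0.43 ± 0.23, and APP, the amyloid precursor protein, at -0.08 ± 0.23.

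The machinery that builds and releases granules differed less at 2 days, with a median of 0.32 over 16 genes, and 0 were called in any test. RAB27B, a small GTPase of granule transport, read 0.93 ± 0.29, NBEAL2, whose loss causes gray platelet syndrome, 0.59 ± 0.22, and the fusion protein VAMP3 0.54 ± 0.19. Genes of other platelet proteins stood close to the cargo genes. All 28 were higher at 2 days, with a median of 1.39. Against 0.0601% of all tested probes, 1 of the 28 was called by limma (PDE5A, a phosphodiesterase, 1.44 ± 0.18, adjusted p = 0.0965). The median of the 28 was 0.40 at 5 days and -0.02 at 30 days. Against 0.902% of all tested probes, 15 of the 28 changed over the time course. These were PDE5A, NRGN, TUBB1, P2RY12, GP9, PRKAR2B, PTCRA, ESAM and LY6G6F, and ITGB5, GNG11, CMTM5, ITGA2B, GP1BB and C6orf25, which were also among the 10 most similar profiles. PTCRA had the largest difference of the 28 at 2 days, 1.98 ± 0.37, and ESAM, a junctional adhesion molecule, was lower in 5 of 5 pairs at 30 days (-0.77 ± 0.19). GP1BA, GP5 and GP6, which also define platelets, were not well above background on enough arrays.

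Of 13 megakaryocyte transcription factors, all were higher on average at 2 days with a median of 0.47, and LMO2 changed over the time course (limma F test, adjusted p = 0.0917). MEIS1 read 1.25 ± 0.23 at 2 days and NFE2 0.57 ± 0.18. GATA1 differed by 0.37 ± 0.29. For the receptors of the cargo proteins, 6 genes were measured and 0 were called. The PPBP receptors CXCR2 (1.06 ± 0.33 at 2 days, 1.11 at 30 days) and CXCR1 (1.01 ± 0.27, 1.03 at 30 days) and the P-selectin ligand SELPLG (0.59 ± 0.18) were higher in 5 of 5 pairs at 2 days. CD47 (0.24 ± 0.24) and LRP1 (0.52 ± 0.28) were higher in 3 of 5 pairs. CXCR3 went the other way (-0.27 ± 0.16, higher in 1 of 5 pairs). CXCR2 is also counted among the neutrophil markers below.

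**Figure D4:**
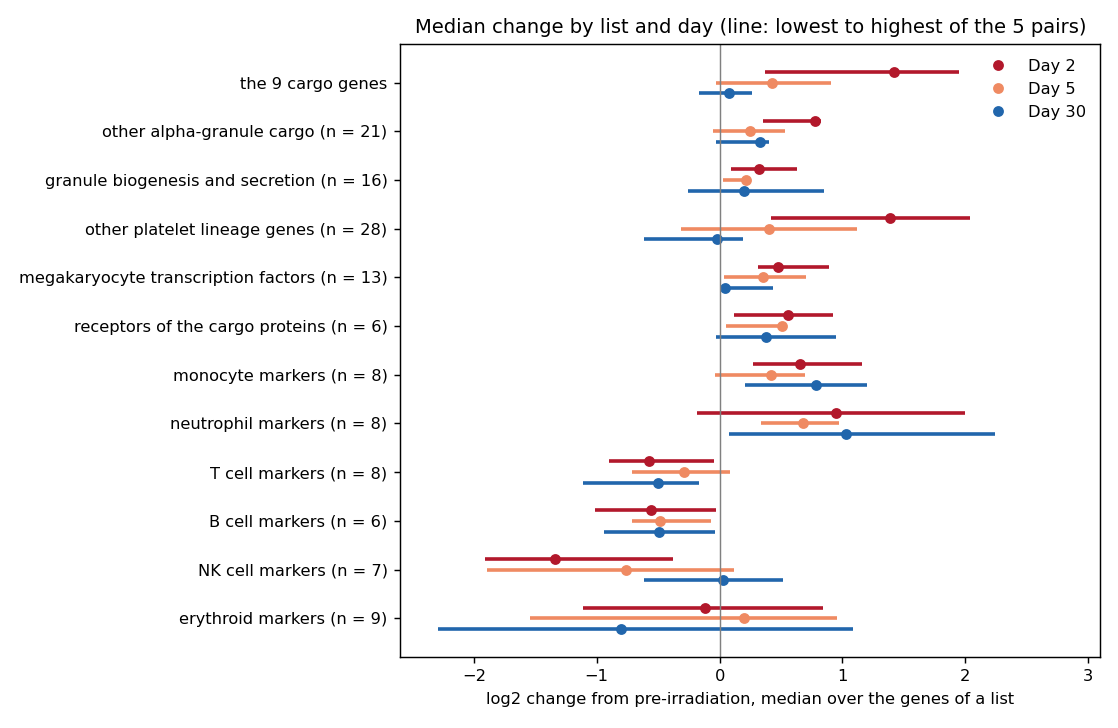
Median over the genes of each list of their mean change from pre-irradiation (x axis, log2) at 2, 5 and 30 days, with a line from the lowest to the highest of the 5 pairs. The cargo genes (1.42, 0.43 and 0.08) and the other platelet genes (1.39, 0.40 and -0.02) go from high to near 0, while the median of the neutrophil markers is 0.95 at day 2 and 1.03 at day 30.

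Markers of other blood cells also moved between the groups. The summed level of each list, in units of the 75th percentile spot, lay between 30.5 and 90.1 before irradiation and 91.7 and 340 at 2 days for the 9 cargo genes. Such a sum is carried by its brightest probes (PF4 among the cargo genes), so it can be compared between groups but not between lists. For 8 of 9 monocyte markers it was 89.9 to 266 before irradiation and 185 to 336 at 2 days, with 8 of 8 higher and a median change of 0.65. For 8 of 10 neutrophil markers it was 139 to 415 and 288 to 931, with 8 of 8 means higher and a median of 0.95. Of these 8 markers 5 were higher at an unadjusted p-value under 0.05, against 8.47% of all tested probes. ALPL (0.0004 ± 0.20) and LTF (0.016 ± 0.35) hardly differed at 2 days. ALPL, LTF and MMP9 (0.66 ± 0.41) were each higher in 3 of 5 pairs. All 8 T cell markers were lower (median -0.58), as were all 6 of the B cell markers (-0.56) and 6 of 7 NK cell markers (-1.34), of which GNLY, KLRD1, KLRF1 and KLRC1 changed over the time course. The 9 erythroid markers had a median of -0.12. Of the endothelial markers 5 of 8 were measured, and KDR, EMCN and ROBO4 were not well above background. CLDN5 changed over the time course (1.31 ± 0.23 at 2 days), while their median was 0.30. Of 7 fibroblast markers only DCN was measured. The part of these cells in the levels of the 9 cargo genes, among them F13A1, THBS1, CLU and SPARC, was not tested.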

How the data were processed

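For 20 one-colour arrays the authors deposited what the Feature Extraction program wrote (version 12.0.2.2 per the file headers, 10.7 per the labels), in which the processed signal is a background-subtracted linear intensity without scaling between arrays. They also deposited a table of log2 values, which equal the log2 of that intensity plus a constant per array for at least 97.0% of values (within 0.001) and served as an alternative.

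Control and outlier spots were dropped, log2 signals of a probe's spots were averaged, and the 75th percentile of the non-control spots was subtracted from each array. On an array 50.9% to 67.3% of spots stood well above background. Precision is limited by the 5 arrays per group. Of 34127 probes, 19961 passed the filter (well above background on 5 arrays or more). They were tested with limma 3.58.1 (R 4.3.3) on the arrays of the groups compared, blocked by replicate number, and over all 20 arrays for the moderated F test of the time course. Adjusted p-values run over all probes tested, and errors are limma's standard errors unless SD is given. The brightest probe stands for a gene.

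Pairing rests on the study's methods. Deviations of same-numbered arrays from their group means correlated between -0.16 and 0.65. On simulated data for 2 days against pre-irradiation (19954 probes), 154 of 200 changed and 15 unchanged probes were called, 21 of 50 at a log2 change of 1. The simulated noise was independent between probes and arrays, with no differences between animals or slides. These rates therefore need not hold for the real arrays.

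The members, the gene lists and the rule for named genes (every member, the called genes of each list, filled up to 3 by the lowest p-values at 2 days in lists other than cell type markers, and the 10 most similar profiles) were chosen with earlier results of these data known. EGF, CCL5, APP, GATA1, CXCR3, CD47, LRP1, ALPL, LTF and MMP9 were named after their values were seen. The rhesus gene table (RefSeq, T2T-MMU8v2.0) holds all 10 symbols. Exon and UTR positions of the probes, promoters and blood counts were not analysed here. Python 3.11.15 with pandas 2.3.3 was used for tables, and matplotlib 3.10.9 for figures.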

Additional observations from a re-analysis of the deposited data

Results flagged for a closer look

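In groups of 5 arrays, an array was singled out when its gap to the nearest other array exceeded 0.71 of the range of its group, which chance alone does for about 1 in 20 groups. Of 48 groups of member probes 9 were singled out, and all 9 were arrays of replicate 3. Before irradiation the gap was 0.844 of the range for PF4 (level 4.21, nearest 5.67), 0.837 for F13A1 (1.88, nearest 2.75), 0.783 for PF4V1 (-1.37, nearest 1.29), 0.776 for CLU (-2.01, nearest -0.31), 0.739 for TREML1 (0.62, nearest 2.05) and 0.714 for PPBP (0.50, nearest 2.10). At 5 days it was 0.710 for F13A1, and at 30 days 0.803 for CLU and 0.763 for PF4V1. These probes share their arrays and are not independent of each other.

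CLU and TREML1 were higher in every pair at 2 days and lower in every pair at 30 days, relative to the same pre-irradiation arrays. The difference between the days was -1.80 for CLU and -1.95 for TREML1 on the log2 scale (limma adjusted p = 0.143 for both), so it did not pass the threshold. MMRN1, which was not tested, was well above background on the array of day 2 replicate 5 alone, at -3.62, where the highest pre-irradiation array was at -5.25. Its signal was nearly as high on later arrays, at -3.93 on day 30 replicate 3 and -4.06 on day 5 replicate 4.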

How the results depend on the processing

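At 2 days the members called by limma went from 0 of 12 probes (12 of 19961 over the array) to 9 of 11 when the filter required all 20 arrays (190 of 15339), 9 of 11 with the deposited log2 values, where far fewer probes were tested (327 of 5653), 9 of 12 with an intensity trend in the spread (200 of 19961) and 8 of 12 with the 4 groups fitted together under the replicate block (343 of 19961). Leaving out a replicate gave 0 to 8 members, and 0 to 588 over the array. For day 30 against day 2 the members called were 2, 4, 0 and 8 in these settings (26, 57, 15 and 164 over the array), and 0 to 3 with a replicate left out (0 to 66). For day 30 against pre-irradiation the count was 1 with normexp (TREML1), where 952 of 19961 probes were called over the array. It was 0 in every other setting. Over the array these called up to 695 of 15339 probes (filter on all 20 arrays), with 451 for the intensity trend. The deposited values gave 334 of 5653, and the 4 groups fitted together gave 121. The time course went from 8 member calls (180 over the array) to 0 with normexp (0) or no replicate block (4), and to between 0 and 8 with a replicate left out (0 to 165).

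Normexp lowered the day 2 differences of the 9 genes to between 0.17 (THBS1) and 1.08 (PF4V1), while the median of all probes moved from -0.04 to 0.17, and the median change of the members from day 2 to day 5 went from -0.90 to -0.40. Some differences changed sign. For day 30 against pre-irradiation normexp gave -0.10 for F13A1, -0.019 for PPBP, -0.0602 for THBS1 and -0.00956 for PF4V1, and quantile normalization gave -0.033 for F13A1. With a replicate left out, F13A1 ranged from -0.034 to 0.084, PPBP from -0.25 to 0.36 and PF4V1 from -0.21 to 0.31. THBS1 went from -0.41 to 0.028 with normexp for day 5 against day 2. For day 30 against day 5, median scaling gave 0.067 for THBS1 and 0.12 for SELP, and with a replicate left out SELP ranged from -0.23 to 0.020 and SPARC from -0.029 to 0.39. The cause was not tested. No day 2 difference of a member changed sign in any setting run, but most settings could not change it. Every member was higher in 5 of 5 pairs, so leaving out a replicate could not turn the mean. The other fits and filters left the mean change as it was. Only normexp, quantile normalization, median scaling, the kept outlier spots and the deposited values could have changed a sign.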
